A study of Arabidopsis thaliana with 32 samples.

Results

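The 36 genes described here encode the enzymes of the Calvin cycle other than Rubisco, the CP12 linker proteins, and the enzymes and transporters of photorespiration in Arabidopsis thaliana. They were chosen by locus and are 36 of the 27655 genes in the count table. All 36 had enough counts to be tested in both tissues. They comprise 15 Calvin cycle genes, 2 CP12 genes, 3 photorespiratory genes of the chloroplast, 6 of the peroxisome, 7 of the mitochondrion, and 3 chloroplast transporter genes.

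In the Calvin cycle, carbon dioxide is fixed onto ribulose bisphosphate, the product is reduced to triose phosphate with ATP and NADPH from the light reactions, and most of the triose phosphate is used to regenerate the acceptor. When Rubisco takes up oxygen instead of carbon dioxide it forms phosphoglycolate, and photorespiration returns most of that carbon to the cycle through reactions in chloroplasts, peroxisomes and mitochondria. Both pathways are known as leaf pathways, while several of their enzymes have other tasks in tissues that are not green, in glycolysis, the pentose phosphate pathway and one-carbon metabolism.

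All plants carried p35s:HF-RPL18, a ribosomal protein with an affinity tag driven by the cauliflower mosaic virus 35S promoter, which is active in most cell types but not equally in all. They grew in hydroponic culture to an age of 6 weeks, before bolting, with 10 h of light and 14 h of dark. For the last day they stood either in normal medium (CK) or in medium where sodium sulfate took the place of magnesium sulfate (MgD). From shoots and from roots, both total RNA and RNA bound to the tagged ribosomes (translating ribosome affinity purification, TRAP) were sequenced, which gives 8 groups of 3 libraries. The groups are shoot total CK, shoot total MgD, shoot TRAP CK, shoot TRAP MgD and the same 4 for root, and no group lacks the transgene. The labels do not say whether the 3 libraries of a group came from separate plants, and every p-value therefore reflects the spread among libraries of a group, which may be technical in origin.

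The libraries held 6147531 to 41472378 counts, the lowest being root total MgD replicate 3. The lane label in the library names was L002 for the shoot TRAP libraries and L001 for all others, so lane cannot be told apart from RNA type in shoots, from tissue where shoot and root TRAP RNA are compared, or from the interaction of RNA type with tissue. The 8 root markers summed to 978 to 1580 CPM in the root total CK libraries, against 8.43 to 12.7 CPM in shoot total CK and 1.04 to 1.51 CPM in shoot TRAP CK, where CASP1, EXPA7, RHD6 and CASP2 had no counts. The 8 genes of the light-harvesting antenna, markers of green tissue, summed to 331 to 440 CPM in root total CK and 617 to 1360 CPM in root TRAP CK. Antenna transcripts were thus present in all root libraries, and their level is given below beside results of the members. The RNA is from whole organs, so fewer cells of a type and less RNA per cell cannot be told apart.

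The upstream windows of 2 members are shown because both genes belong to the group with a large shoot excess described below and each of their windows holds an I-box, 1 of 6 motifs searched. Each line gives the 250 bases before the annotated gene start, 5′ to 3′ on the gene's strand, from the RefSeq annotation of TAIR10.1. FBPase (AT3G54050) and CP12-2 (AT3G62410) were both far higher in shoot than in root. The windows lie at chr3:20016587-20016836, plus strand, and at chr3:23090694-23090943, plus strand. Capitals mark matches on either strand to the I-box (GATAAG) and the G-box (CACGTG), elements known from promoters of light-regulated plant genes.
FBPase: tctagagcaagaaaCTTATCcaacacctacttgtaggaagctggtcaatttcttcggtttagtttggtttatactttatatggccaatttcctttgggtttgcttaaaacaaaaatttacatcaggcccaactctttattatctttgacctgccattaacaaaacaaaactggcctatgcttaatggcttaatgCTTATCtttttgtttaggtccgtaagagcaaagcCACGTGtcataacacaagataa
CP12-2: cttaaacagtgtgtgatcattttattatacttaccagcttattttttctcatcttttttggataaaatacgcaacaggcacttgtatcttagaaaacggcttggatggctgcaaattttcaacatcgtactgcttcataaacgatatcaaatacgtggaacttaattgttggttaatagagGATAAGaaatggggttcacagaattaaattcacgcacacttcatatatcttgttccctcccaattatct

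The FBPase window held 2 I-boxes and 1 G-box and the CP12-2 window 1 I-box and no G-box. Among the 36 members, 3 windows held an I-box, those of FBPase, CP12-2 and GLDP2. This is 8.33% against 12.3% of all 27443 windows, those of the protein-coding genes on the nuclear chromosomes. A G-box stood in 4 members' windows, those of PRK, FBPase, GLDP1 and GGT1, which is 11.1% against 6.49% of all windows. The motifs are short and the windows are a description of these letters only. Of the 15 genes with the largest shoot excess, 2 held an I-box and 2 a G-box. The other 4 motifs, searched on both strands, were a CCA1-type element (AAATCT), the telo-box (AAACCCTA), the site II element (TGGGCC) and a TATA sequence (TATAAA). The CCA1-type element stood in 25% of the members' windows against 34.4% of all windows, and the telo-box in 2.78% against 4.49%. The site II element stood in 19.4% against 13.7%, and the TATA sequence in 36.1% against 47.3%.

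One member cannot be read with confidence. PGLP1 (AT5G36790), phosphoglycolate phosphatase, has a near-identical copy, AT5G36700, and every exonic stretch of 50 or of 100 bases in it occurs again elsewhere in the genome. The stretch below is shown because it lies in both genes, at chr5:14424275-14424324 in AT5G36700 and chr5:14483575-14483624 in AT5G36790, both on the minus strand of TAIR10.1.
shared stretch: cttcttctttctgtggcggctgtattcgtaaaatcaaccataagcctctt
How reads that match both copies were counted was not given in the sources used here, and PGLP1 had the lowest abundance of all members in shoots, 4.08 TPM in total RNA under CK. Its values are therefore uncertain. In each of the other 35 members at most 0.267% of the exonic stretches were shared.

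**Figure D1:**
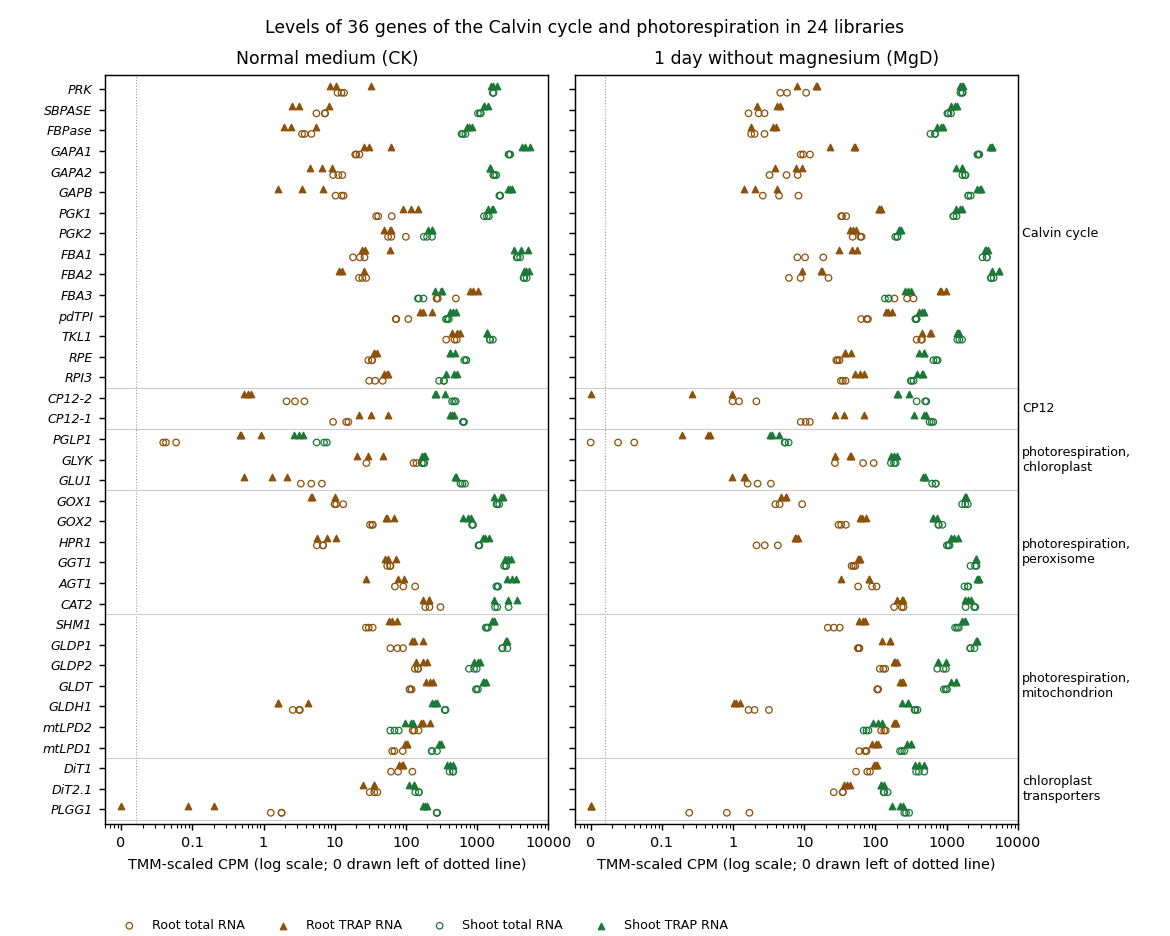
TMM-scaled CPM (counts scaled to library size, log scale) of the 36 genes in each of the 24 libraries, CK on the left and MgD on the right, grouped by role. Open circles are total RNA and triangles TRAP RNA, brown for root and green for shoot, and libraries without counts are drawn left of the dotted line. FBA3 and mtLPD2 are the 2 genes whose root libraries all lie above the shoot libraries of the same RNA type under CK.

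The members were abundant in shoots and scarce in roots. They held 2.71% of all transcript abundance (in TPM, a length-corrected scale that allows levels of different genes to be compared) in shoot total RNA under CK and 0.234% in root total RNA. In TRAP RNA the shares were 3.20% and 0.248%. In shoot total RNA, 9 of the 36 were among the 100 most abundant genes, and none was in root total or root TRAP RNA. FBA2 and FBA1, chloroplast fructose-bisphosphate aldolases, led the shoot with 3227 and 2254 TPM, followed by GAPA1, a subunit of the photosynthetic glyceraldehyde-3-phosphate dehydrogenase, with 1982 TPM. In root total RNA the order was different. FBA3, a further plastid aldolase, led with 408.7 TPM, ahead of TKL1, transketolase, with 308 TPM and CAT2, a catalase of leaf peroxisomes, with 182 TPM.

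In total RNA under CK, 33 of the 36 members were higher in shoot, against 31.1% of the 21163 genes tested, and 2 were lower, against 33.6%, together 64.8% (edgeR quasi-likelihood test, Benjamini-Hochberg adjusted p under 0.05). The median log2 fold change of the members was 5.20, against -0.0697 over all genes tested. In TRAP RNA 34 were higher, against 32.9% of all genes, and 2 lower, against 35.9%, with a median of 3.95 against -0.0648. Under both RNA types the lower pair were FBA3 and mtLPD2. In total RNA the libraries of shoot and root did not overlap for any member, with 34 higher in shoot, which was so for 30.8% of genes with a count, and 2 lower, against 33.7%. GLYK, glycerate kinase, was the gene without a call in total RNA, although its shoot libraries all lay above its root libraries (log2 0.82 ± 0.44, adjusted p = 0.106).

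PRK and SBPASE, enzymes that act in the Calvin cycle alone, were scarce in roots. PRK (AT1G32060), phosphoribulokinase, which makes the acceptor of carbon dioxide, had 1698, 1681 and 1660 CPM in shoot total, 1875, 1665 and 1555 in shoot TRAP, 13.5, 10.9 and 12.5 in root total and 32.8, 10.3 and 8.5 in root TRAP libraries, all under CK. The shoot libraries lay close together and far above every root library, and root TRAP replicate 1 stood apart from the other root TRAP libraries. SBPASE (AT3G55800), sedoheptulose-bisphosphatase, which acts in regeneration, had 1028, 1096 and 1128 CPM in shoot total, 1417, 1261 and 1231 in shoot TRAP, 7.26, 5.53 and 7.31 in root total and 8.32, 2.55 and 3.2 in root TRAP libraries. Shoot and root did not overlap, and the same root TRAP library was the highest of its group. The log2 difference between shoot and root total RNA was 7.09 ± 0.45 for PRK and 7.34 ± 0.36 for SBPASE (± SE, n = 3 and 3).

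The reduction step is run by GAPA and GAPB subunits, of which GAPB carries the extension through which the enzyme assembles into inactive complexes in the dark. GAPA1 (AT3G26650) had 2762, 2875 and 2911 CPM in shoot total, 5548, 4671 and 4248 in shoot TRAP, 22.3, 20.1 and 19.4 in root total and 61.5, 29.9 and 25.5 in root TRAP libraries. In shoots all TRAP libraries lay above all total RNA libraries, and in roots this held as well. GAPB (AT1G42970) had 2098, 2054 and 2108 CPM in shoot total, 3095, 2913 and 2688 in shoot TRAP, 12.5, 10.3 and 13.3 in root total and 6.8, 3.51 and 1.6 in root TRAP libraries. Its shoot TRAP libraries were also all above shoot total RNA, but its root TRAP libraries were all below root total RNA. The aldolases FBA1 (AT2G21330) and FBA2 (AT4G38970) catalyse the same condensation of triose phosphates. FBA1 had 4018, 3602 and 3711 CPM in shoot total, 5119, 4142 and 3335 in shoot TRAP, 22.6, 18.1 and 26.2 in root total and 60.3, 24.5 and 27 in root TRAP libraries. FBA2 had 4583, 4499 and 4957 CPM in shoot total, 5272, 4909 and 4620 in shoot TRAP, 24.5, 21.9 and 27.7 in root total and 25.4, 11.3 and 12.8 in root TRAP libraries, with the largest shoot excess in total RNA of all members at 7.57 ± 0.44.

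FBA3 (AT2G01140) ran the other way. It had 176, 148 and 152 CPM in shoot total, 326, 309.6 and 255 in shoot TRAP, 503, 269.5 and 280.3 in root total and 1038, 786 and 866 in root TRAP libraries. All root libraries lay above all shoot libraries of the same RNA type, and within each tissue TRAP RNA lay above total RNA. Shoot was lower than root by a log2 difference of -1.15 ± 0.22 in total RNA (adjusted p = 8.16e-05, edgeR quasi-likelihood test, Benjamini-Hochberg) and -1.59 ± 0.22 in TRAP RNA (adjusted p = 1.26e-06). FBA3 therefore held 1.89% ± 0.161 (SD, n = 3) of the summed TPM of FBA1 to FBA3 in shoot total RNA and 87.8% ± 3.71 in root total RNA.

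PGK1, PGK2, pdTPI, TKL1, RPE and RPI3 encode further enzymes of the reduction and regeneration steps. PGK1 (AT3G12780), phosphoglycerate kinase, had 1463, 1248 and 1373 CPM in shoot total, 1685, 1613 and 1414 in shoot TRAP, 63.3, 38.3 and 40.9 in root total and 148, 91.8 and 117 in root TRAP libraries, a shoot excess of 4.84 ± 0.21 in total RNA. Its root TRAP libraries were all above root total RNA. PGK2 (AT1G56190), a further phosphoglycerate kinase, had 232, 178 and 198 CPM in shoot total, 232, 235 and 202 in shoot TRAP, 99.8, 56.1 and 62.5 in root total and 61.5, 59.1 and 48.8 in root TRAP libraries, and its shoot excess was 1.48 ± 0.17. The values of shoot and root were closer for PGK2 than for PGK1, though they still did not overlap. pdTPI (AT2G21170), the plastid triose phosphate isomerase, had 401, 382 and 365 CPM in shoot total, 508, 462 and 422 in shoot TRAP, 108, 73.3 and 72.2 in root total and 231, 156 and 171 in root TRAP libraries. TKL1 (AT3G60750) had 1524, 1504 and 1666 CPM in shoot total, 1378, 1377 and 1355 in shoot TRAP, 517, 368 and 479.7 in root total and 446, 516 and 580.5 in root TRAP libraries. Both were higher in shoot, by 2.18 ± 0.16 and 1.78 ± 0.15 on the log2 scale in total RNA, which places them at the low end among the members. RPE (AT5G61410) and RPI3 (AT3G04790), the epimerase and isomerase that interconvert pentose phosphates, had shoot excesses of 4.42 ± 0.13 and 3.09 ± 0.17.

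RPE had 660.1, 707 and 700.5 CPM in shoot total, 492, 417 and 418 in shoot TRAP, 33.6, 29.6 and 33.1 in root total and 39.7, 36 and 35.8 in root TRAP libraries. RPI3 had 343, 293 and 341 CPM in shoot total, 519, 476 and 370.3 in shoot TRAP, 47.2, 30.5 and 37 in root total and 48.8, 55.6 and 54.1 in root TRAP libraries. In shoots the TRAP libraries of RPE all lay below total RNA and those of RPI3 all lay above, so the 2 enzymes, which act on the same pool of pentose phosphates, stood on opposite sides of total RNA.

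CP12 proteins bind PRK and the GAPA and GAPB enzyme into a complex in the dark. CP12-2 (AT3G62410) had 501, 475 and 445 CPM in shoot total, 356, 265 and 252 in shoot TRAP, 2.11, 2.77 and 3.75 in root total and 0.609, 0.527 and 0.673 in root TRAP libraries. In each tissue the TRAP libraries lay below the total RNA libraries. The root TRAP values of CP12-2 came from only 12, 12 and 16 counts, which limits them and the shares built on them. CP12-1 (AT2G47400) had 654, 646 and 632 CPM in shoot total, 481, 443 and 411 in shoot TRAP, 15.5, 14.5 and 9.49 in root total and 55.2, 31.9 and 21.7 in root TRAP libraries. Its TRAP libraries lay below total RNA in shoot and above it in root. By TPM, CP12-1 made up 48.7% ± 1.05 of the CP12 transcripts in shoot total RNA (SD, n = 3), 75.4% ± 10.3 in the root total libraries and 97.3% ± 1.4 in those of root TRAP.

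In the chloroplast part of photorespiration, GLU1 (AT5G04140), the ferredoxin-dependent glutamate synthase that takes back photorespiratory ammonium, had 621, 584 and 676 CPM in shoot total, 494, 511 and 498 in shoot TRAP, 4.68, 3.34 and 6.61 in root total and 1.32, 0.527 and 2.1 in root TRAP libraries. Shoot libraries lay far above root, and root TRAP lay below root total RNA in all 3 libraries. GLYK (AT1G80380), which returns glycerate to the cycle as phosphoglycerate, had 167, 177 and 180.5 CPM in shoot total, 181, 183 and 167 in shoot TRAP, 27.9, 128 and 141 in root total and 20.7, 29.6 and 47.4 in root TRAP libraries. Root total replicate 1 was far below the other root total libraries, and under MgD the root total values were again spread, at 26.9, 67.1 and 94.3 CPM. The last of these comes from root total MgD replicate 3, whose deposited counts and TPM disagree. Without root total CK replicate 3, GLYK was called higher in shoot.

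In the peroxisome, GOX1 (AT3G14420) and GOX2 (AT3G14415) encode glycolate oxidases, HPR1 (AT1G68010) hydroxypyruvate reductase, and CAT2 (AT4G35090) the catalase that removes the hydrogen peroxide made there. GOX1 had 2045, 1921 and 1876 CPM in shoot total, 2321, 2161 and 1744 in shoot TRAP, 10.5, 9.94 and 13.2 in root total and 10.2, 4.79 and 4.67 in root TRAP libraries. GOX2 had 874, 863 and 850.1 CPM in shoot total, 824, 744 and 639 in shoot TRAP, 31.3, 34.3 and 33.6 in root total and 53.8, 67.9 and 52.5 in root TRAP libraries. Shoot excess was 7.44 ± 0.33 for GOX1 and 4.70 ± 0.15 for GOX2 in total RNA, and the GOX1 share of their summed TPM was 67.3% ± 0.686 in shoot and 23.6% ± 2.71 in root. HPR1 had 1067, 1046 and 1075 CPM in shoot total, 1470, 1286 and 1220 in shoot TRAP, 6.87, 5.61 and 6.87 in root total and 10.4, 5.62 and 7.83 in root TRAP libraries, with tissue values far apart. CAT2 had 2772, 1920 and 1783 CPM in shoot total, 3605, 2676 and 1710 in shoot TRAP, 306, 187 and 214 in root total and 214, 214 and 173 in root TRAP libraries. Its shoot TRAP libraries overlapped with shoot total RNA, its root libraries of both RNA types overlapped as well, and the shoot excess in total RNA was 3.20 ± 0.25. Of the 2 aminotransferases that convert glyoxylate to glycine, GGT1 (AT1G23310) had a shoot excess of 5.42 ± 0.16 and AGT1 (AT2G13360), which uses serine, one of 4.28 ± 0.40. AGT1 had 1967, 1944 and 1861 CPM in shoot total, 3478, 3043 and 2648 in shoot TRAP, 135, 91.9 and 70.1 in root total and 92.7, 77.4 and 27.2 in root TRAP libraries. Its TRAP libraries lay above total RNA in shoot and overlapped with it in root.

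In the mitochondrion, glycine is split by the glycine decarboxylase proteins P (GLDP1, GLDP2), T (GLDT), H (GLDH1) and L (mtLPD1, mtLPD2), and SHM1, serine hydroxymethyltransferase, makes serine from the product. SHM1 (AT4G37930) had 1378, 1321 and 1418 CPM in shoot total, 1633, 1716 and 1713 in shoot TRAP, 27.4, 30.1 and 34.2 in root total and 64.2, 58 and 75 in root TRAP libraries. GLDP1 (AT4G33010) had 2244, 2284 and 2660 CPM in shoot total, 2541, 2659 and 2550 in shoot TRAP, 60.5, 75.9 and 91.2 in root total and 130.4, 123 and 176 in root TRAP libraries. In both genes the root TRAP libraries lay above root total RNA. GLDH1 (AT2G35370) differed most between tissues in this group, at 6.88 ± 0.28, while GLDT (AT1G11860) and GLDP2 (AT2G26080) differed by 3.10 ± 0.12 and 2.63 ± 0.16.

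The L protein is shared with the pyruvate and oxoglutarate dehydrogenases of respiration. mtLPD1 (AT1G48030) had 230.0, 233 and 273 CPM in shoot total, 311, 312 and 291 in shoot TRAP, 90.3, 64.2 and 69 in root total and 102, 97.8 and 104 in root TRAP libraries. mtLPD2 (AT3G17240) had 79.4, 60.1 and 69.1 CPM in shoot total, 118, 124 and 98.5 in shoot TRAP, 150.5, 125 and 131 in root total and 165, 175 and 218 in root TRAP libraries. mtLPD1 was higher in shoot (1.72 ± 0.13 in total RNA) and mtLPD2 lower (-0.96 ± 0.14, adjusted p = 2.84e-06, edgeR quasi-likelihood test). The share of mtLPD1 in their summed TPM was 78.9% ± 2.97 in shoot and 36.7% ± 1.93 in root total RNA.

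Of the transporters, DiT1 (AT5G12860) and DiT2.1 (AT5G64290), which exchange dicarboxylates across the chloroplast envelope, had moderate shoot excesses of 2.34 ± 0.21 and 2.04 ± 0.15. PLGG1 (AT1G32080), which exchanges glycolate for glycerate, had 272, 273 and 271 CPM in shoot total, 175, 199 and 186 in shoot TRAP, 1.79, 1.26 and 1.79 in root total and 0.203, 0.0878 and 0 in root TRAP libraries. Those root TRAP values came from 4, 2 and 0 counts, so that PLGG1 was close to the limit of detection there. Its shoot excess was 7.41 ± 0.36 in total RNA.

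**Figure D2:**
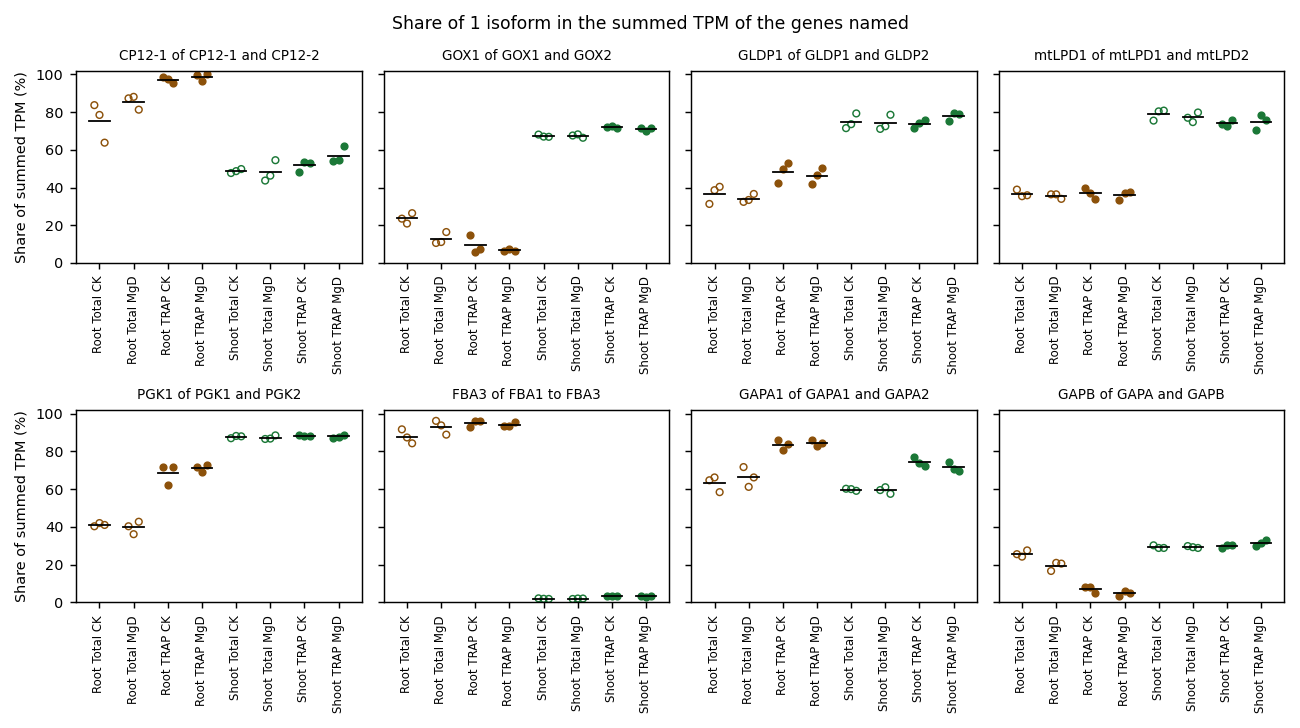
Share (%) of 1 isoform in the summed TPM of the genes named above its panel in each library, with group means as bars. Open circles are total RNA and filled circles TRAP RNA, brown for root and green for shoot. The CK libraries of root and shoot do not overlap in 7 of the 8 panels, the exception being GAPA1, and the CP12-1 share is highest in root TRAP RNA.

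The isoform shares separated the tissues without overlap of any CK library for GOX1, GLDP1, mtLPD1, PGK1, FBA3, CP12-1 and GAPB, and overlapped for GAPA1 and DiT1. The GLDP1 share of the P protein was 74.8% ± 4 in shoot total and 36.8% ± 4.79 in root total RNA, and the PGK1 share 87.7% ± 0.641 and 41.1% ± 0.87. The DiT1 shares were 74.2% ± 0.191 and 69% ± 4.92 in shoot and root total RNA. The GAPB share of the GAPA and GAPB transcripts was 29.3% ± 0.777 in shoot total, 25.7% ± 1.66 in root total and 7.07% ± 2.03 among root TRAP transcripts. Shares carry no test here and are given with their SD over 3 libraries.

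In total RNA, 15 members had nearly the same ratio of shoot to root. PRK, SBPASE, FBPase, GAPA1, GAPA2, GAPB, FBA1, FBA2, CP12-2, GOX1, HPR1, GLDH1, PGLP1, GLU1 and PLGG1 had log2 fold changes between 6.88 and 7.57, with an SD of 0.20 across the genes. The next lower value was 5.61 for CP12-1, and the other 21 members ranged from -1.15 to 5.61. The line at a log2 value of 6 was drawn after these values were seen, so the grouping is a description. The antenna genes had values from 6.92 to 7.61 with a median of 7.01, and 5 genes of Rubisco and its activase had a median of 7.39. In TRAP RNA the same 15 members spread from 2.36 for the uncertain PGLP1 to 10.9 for PLGG1, with an SD of 1.87, and the antenna median was 5.79. Without PGLP1 and without PLGG1, whose root TRAP counts were 4, 2 and 0, the other 13 spread from 6.63 to 9.52 with an SD of 0.90 in TRAP RNA, against 0.20 in total RNA. These SDs cannot be compared as a result. The genes were chosen by their total RNA values, which narrows the spread there, and CP12-2 and GLU1 had few root TRAP counts. In root total RNA these 15 genes and the antenna genes both had lower medians under MgD, as described below. Within root total CK, the medians of the 15 relative to the CK mean were 0.00723, -0.175 and 0.144 (log2). Those of the antenna genes were 0.141, -0.229 and 0.0199, so the highest library was not the same. Whether green cells in the root samples account for the root level of the 15 genes was not tested.

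**Figure D3:**
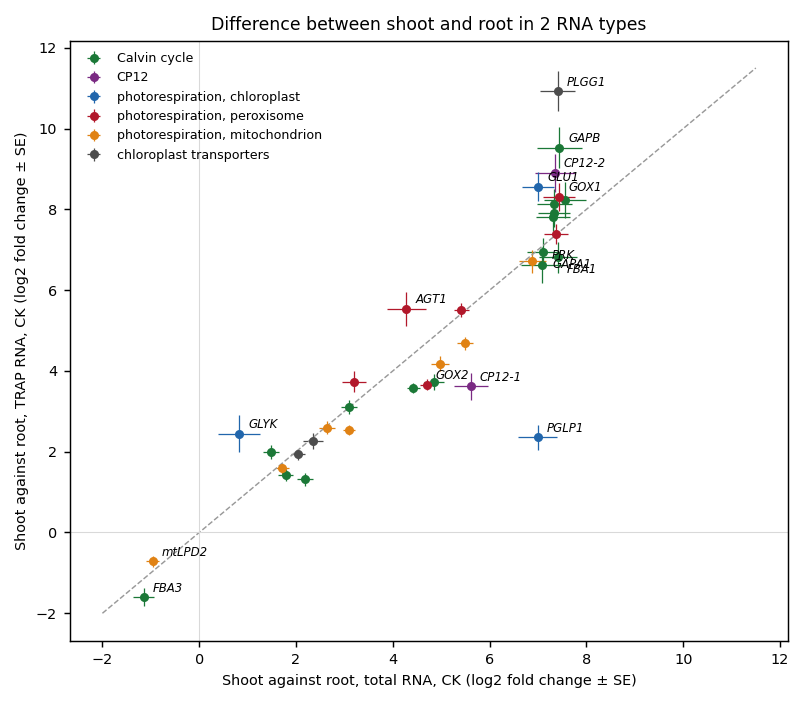
Log2 fold change of shoot over root under CK in total RNA (x) and TRAP RNA (y) for the 36 genes, coloured by role, with SE bars, and the dashed line marks equal values. A column of genes stands between 6.88 and 7.57 on the x axis and spreads on the y axis from PGLP1 at 2.36 to PLGG1 at 10.93, and FBA3 and mtLPD2 are negative on both axes.

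Further genes of both pathways, listed beside the members, were called in both directions. Of 21 further genes related to the Calvin cycle, cytosolic isoforms of its enzymes included, 9 were higher in shoot total RNA, against 31.1% of all genes tested. Lower were 6, against 33.6%, and the median was 0.197. APE2, the triose phosphate translocator of the chloroplast, was higher by a log2 value of 6.04 ± 0.22, and GAPCP-1, a plastid glycolytic dehydrogenase, was lower (log2 -2.97 ± 0.17). Of 23 further genes annotated to photorespiration, 10 were higher and 8 lower, against the same shares of all genes, with a median of 0.266. GS2, the chloroplast glutamine synthetase, was higher by 3.63 ± 0.17 and PMDH2, a peroxisomal malate dehydrogenase, by 7.25 ± 0.37.

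TRAP RNA was then compared with total RNA of the same tissue, to ask how the share of these transcripts on tagged ribosomes compares with their share of the RNA. In shoots under CK, 11 members were higher in TRAP RNA, against 21.3% of the 19341 genes tested, and 10 lower, against 23.6%, together 44.9%. The median was 0.0952, against -0.0252 over all genes. The members as a list were thus split, and the largest differences were in FBA3 at 0.87 ± 0.11, GAPA1 at 0.72 ± 0.10, mtLPD2 at 0.67 ± 0.13, AGT1 at 0.63 ± 0.10 and RPI3 at 0.45 ± 0.12 on the log2 scale. The lowest values were -0.74 ± 0.16 for CP12-2, -0.68 ± 0.10 for RPE, -0.58 ± 0.11 for PLGG1 and -0.57 ± 0.12 for CP12-1, besides the uncertain PGLP1 at -1.14 ± 0.21. Adjusted p-values of the 9 genes other than PGLP1 ranged from 9.08e-06 to 0.00496 (edgeR quasi-likelihood test, Benjamini-Hochberg). With all 24 libraries in 1 model, 5 were higher and 2 lower. In limma on log2(TPM + 1) 6 were lower, and without shoot total CK replicate 1 or 2 or without shoot TRAP CK replicate 2 fewer small differences passed, down to 15 members in all. Beside these values, 4 of 9 markers of leaf cell types were higher and 3 lower in shoot TRAP RNA, from -2.43 to 3.17. The part of unequal tagging of cell types in the members' differences was not tested.

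The libraries under MgD, which are separate from those under CK, gave 12 higher members, against 22.1% of all genes, and 8 lower, against 23.7%. In both media 19 members were called in the same direction. The share of all genes called alike in both media was not computed, so this count cannot be read as particular to the members. Across the 36 members the log2 values had a Pearson correlation of 0.932, a description in which genes of a tissue share their library pairs. FBA3 (0.96 ± 0.11), GAPA1 (0.59 ± 0.10), mtLPD2 (0.54 ± 0.13), AGT1 (0.51 ± 0.10) and GAPB (0.48 ± 0.09) were the highest on the log2 scale. CP12-2 (-0.99 ± 0.16), RPE (-0.64 ± 0.10), GLU1 (-0.47 ± 0.09) and CP12-1 (-0.46 ± 0.12) were among the lowest. With all 24 libraries in 1 model, 5 were higher and 2 lower. Without shoot TRAP MgD replicate 1 the number lower fell to 5, and without replicate 2 the number higher to 8. Of the Rubisco and activase genes, 4 of 5 were lower in shoot TRAP RNA under CK and 1 higher, while none of the 8 antenna genes was called. Under MgD, 4 of the 9 markers of leaf cell types were higher and 3 lower, from -1.95 to 2.97.

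By library, FBA3 had 136, 153 and 153 CPM in shoot total MgD and 263, 282 and 316 in shoot TRAP MgD. GAPA1 had 2873, 2809 and 2695 CPM in shoot total MgD and 4313, 4310 and 4050 in shoot TRAP MgD. mtLPD2 had 74.5, 79.7 and 68.1 CPM in shoot total MgD and 125, 92.5 and 107 in shoot TRAP MgD. For each of these genes all TRAP libraries lay above all total RNA libraries. CP12-2 had 517, 499 and 378 CPM in shoot total MgD and 202, 296 and 208 in shoot TRAP MgD. RPE had 746, 651 and 713 CPM in shoot total MgD and 404, 475 and 477 in shoot TRAP MgD. GLU1 had 697, 624 and 704 CPM in shoot total MgD and 503, 462 and 497 in shoot TRAP MgD. For these 3 genes all TRAP libraries lay below all total RNA libraries.

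**Figure D4:**
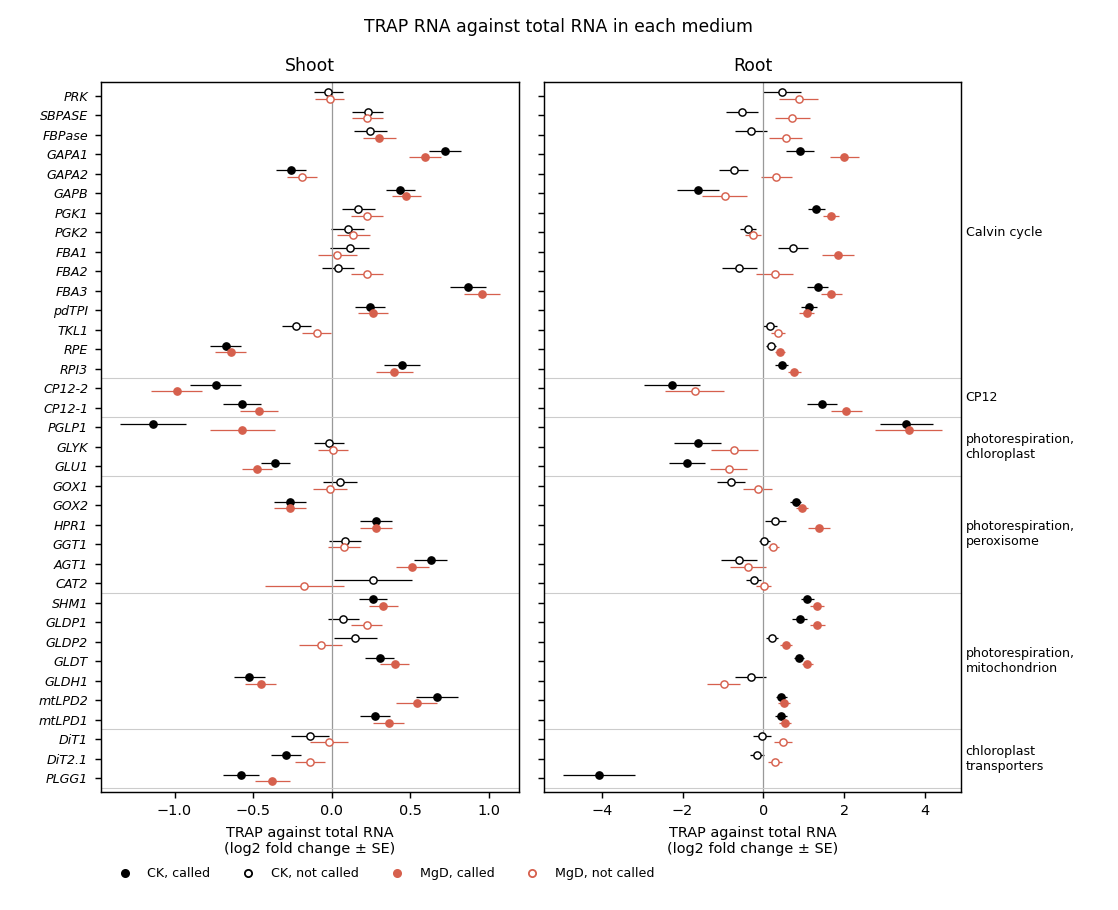
Log2 fold change of TRAP over total RNA (± SE) for the 36 genes in shoot (left) and root (right), CK in black and MgD in red, filled where called at an adjusted p under 0.05. The axes of the panels differ, and PLGG1 in root under MgD is not drawn because its TRAP libraries had no counts. FBA3 is right of 0 in all 4 comparisons, and CP12-1 is left of 0 in shoot and right of 0 in root.

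In roots under CK, 13 members were higher in TRAP RNA, against 22.6% of the 20311 genes tested, and 5 lower, against 25.5%, together 48.2%, with a median of 0.181 against -0.0642. The highest values were 1.45 ± 0.38 for CP12-1, 1.34 ± 0.26 for FBA3, 1.31 ± 0.20 for PGK1, 1.13 ± 0.19 for pdTPI and 1.09 ± 0.17 for SHM1, besides PGLP1, whose 18, 11 and 11 TRAP counts stood against 1, 3 and 2 in total RNA. The mitochondrial genes GLDP1, GLDT, mtLPD1 and mtLPD2 were also called higher, from 0.43 ± 0.15 for mtLPD1 to 0.90 ± 0.19 for GLDP1. Lower in TRAP RNA were PLGG1 at -4.08 ± 0.89, CP12-2 at -2.27 ± 0.68, GLU1 at -1.90 ± 0.45, GAPB at -1.62 ± 0.53 and GLYK at -1.62 ± 0.58. The adjusted p-values of these 5 were 0.00367, 0.016, 0.00441, 0.0243 and 0.0378 (edgeR quasi-likelihood test, Benjamini-Hochberg). The GLYK groups overlapped, since root total replicate 1 lay within the root TRAP range. Its call was lost without root TRAP CK replicate 1 or 2, and without root total CK replicate 2 or 3. GLYK was also not called without the low-count filter, in limma on TPM, or with reads recovered from TPM for root total MgD replicate 3.

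With edgeR's RLE scaling in place of TMM, the same 18 members were called. On TPM without rescaling between libraries, where the median gene moved by -0.472 (log2), limma called 5 members higher and 15 lower in root under CK. The 9 members called by both tests kept their direction, and those called by limma alone were not compared in direction. That alternative differs in test, input and scaling together. Root TRAP and root total libraries with the same number in their titles deviated together, and with that number as a block AGT1 was also lower in TRAP RNA, at -0.73 ± 0.21 on the log2 scale (adjusted p = 0.0103, edgeR quasi-likelihood test, Benjamini-Hochberg), against -0.60 ± 0.45 and 0.286 without the block. AGT1 was lower in TRAP RNA in each of the 3 pairs. Without root total CK replicate 3, 11 members were called in all and 2 of them were lower, PLGG1 and GLU1. Beside these values, 5 of 8 antenna genes were higher in root TRAP RNA, with a median of 1.22, and 5 of 8 root markers were lower, with a median of -2.17. The part of unequal tagging of cell types in these differences was not tested.

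Under MgD, 17 members were higher in root TRAP RNA, against 24.5% of all genes, and 1 lower, against 28%. The median was 0.52 against -0.0626. In both media 14 members were called in the same direction, a count for which the share over all genes was not computed. GAPA1 was 4.01-fold higher, and on the log2 scale CP12-1 was at 2.05 ± 0.39, FBA1 at 1.85 ± 0.39, FBA3 at 1.68 ± 0.26 and PGK1 at 1.67 ± 0.21. Without root TRAP MgD replicate 2 or root total MgD replicate 1, 2 members were lower. The smallest called values were 0.40 ± 0.13 for RPE, 0.51 ± 0.14 for mtLPD2, 0.53 ± 0.15 for mtLPD1, 0.56 ± 0.15 for GLDP2 and 0.76 ± 0.16 for RPI3. PLGG1 had no counts in the 3 root TRAP MgD libraries and 46 counts in root total MgD, and against a floor of 3 counts over the group it was at least 14.5-fold lower, a bound that covers counting error only and is too high where the mates of a pair were counted singly. On unscaled TPM, limma called 11 higher and 6 lower, and the median gene moved by -0.501. With the title number as a block DiT1 was also higher in TRAP RNA, by 0.50 ± 0.18 (adjusted p = 0.0339, edgeR quasi-likelihood test, Benjamini-Hochberg), against 0.48 ± 0.22 and 0.0903 without it. DiT1 had 83.7, 76.5 and 53.3 CPM in root total MgD and 104, 103 and 94.1 in root TRAP MgD, and the groups did not overlap. Beside these values, 6 of 8 antenna genes were higher in root TRAP RNA under MgD, with a median of 2.14, and 5 of 8 root markers were lower, with a median of -2.6, and their part in the members' differences was not tested.

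By library, CP12-1 had 12, 10.4 and 8.92 CPM in root total MgD and 69.6, 36.3 and 27 in root TRAP MgD. GAPA1 had 8.91, 9.65 and 12 CPM in root total MgD and 51.4, 49.1 and 22.8 in root TRAP MgD. FBA1 had 7.99, 10.3 and 18.5 CPM in root total MgD and 54.6, 46 and 30.7 in root TRAP MgD. In CP12-1, GAPA1 and FBA1 alike the TRAP libraries lay above total RNA without overlap. FBA3 had 343, 277 and 184 CPM in root total MgD and 978, 827 and 809.5 in root TRAP MgD. PGLP1 had 1, 1 and 0 counts in root total MgD and 10, 13 and 4 in root TRAP MgD.

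Whether the difference between TRAP and total RNA itself differed between shoot and root was tested as an interaction. Under CK it was higher in shoot for 4 members, against 12.7% of the 21163 genes, and lower for 9, against 16.2%, together 28.9%, with a median of -0.062 against -0.0252. Higher in shoot were PLGG1 (3.52 ± 0.68), GAPB (2.09 ± 0.52), CP12-2 (1.56 ± 0.55) and GLU1 (1.56 ± 0.40). Lower in shoot were PGLP1 (-4.64 ± 0.52), CP12-1 (-2.00 ± 0.42), PGK1 (-1.12 ± 0.25), GOX2 (-1.04 ± 0.19), pdTPI, RPE, SHM1, GLDP1 and GLDT, the last 5 between -0.86 and -0.56. Adjusted p was 0.00501 for GAPB and 0.0014 for CP12-1 (edgeR quasi-likelihood test, Benjamini-Hochberg).

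The 2 CP12 genes thus had opposite interactions, as did GAPB and PGK1, whose enzymes act in successive steps. CP12-2 had an adjusted p of 0.0379 and was not called when any 1 of 9 of the 12 CK libraries was left out. Without root TRAP CK replicate 1, the number of members higher in shoot was 7. With RLE scaling the same 13 members were called. In limma on unscaled TPM, which changes test, input and scaling together, the split became 18 higher and 4 lower, with the median gene at 0.49, and the cause was not tested. Of the antenna genes 6 of 8 were lower in shoot by this test, with a median of -1.38.

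No member was called for a response to 1 day without magnesium in shoot total, shoot TRAP, root total or root TRAP RNA, against 0% of all genes in each (edgeR quasi-likelihood test, Benjamini-Hochberg). At an unadjusted p under 0.05 there were 355, 1433, 503 and 2284 of all genes tested, and DESeq2 called 0, 16, 1 and 170 genes, none of them a member. In shoots the members' values lay close to 0, from -0.32 to 0.07 in total RNA and from -0.40 to 0.25 in TRAP RNA, with medians of -0.0658 and -0.0361 against -0.0156 and 0.00133 over all genes. The smallest unadjusted p in shoot total RNA were 0.139 for PGLP1 and 0.155 for FBA2, and in shoot TRAP RNA 0.0528 for GLDP2 and 0.0727 for CP12-2. FBA2 had 4224, 4160 and 4555 CPM in shoot total MgD, which overlapped with its CK values. GLDP2 had 1108, 1021 and 907 CPM in shoot TRAP CK and 980.0, 762 and 747 in shoot TRAP MgD, also with overlap. CP12-2 had 202, 296 and 208 CPM in shoot TRAP MgD, likewise overlapping with CK.

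In root total RNA the values leaned to one side without reaching a call. Of the 36 members 35 had a negative log2 value, with a median of -0.378 against -0.011 over all genes. For 12 members all 3 MgD libraries lay below all 3 CK libraries, which was so for 5.52% of genes with a count, and for none the reverse. They were PRK, SBPASE, FBPase, GAPA1, GAPA2, GAPB, FBA2, GOX1, HPR1, GLDP1, GLDT and GGT1. The smallest unadjusted p were 0.00138 for HPR1 and 0.00247 for SBPASE, with an adjusted p of 0.9999 for both. HPR1 had 6.87, 5.61 and 6.87 CPM in root total CK and 2.13, 2.78 and 4.25 in root total MgD, a log2 difference of -1.12 ± 0.28. SBPASE had 7.26, 5.53 and 7.31 CPM against 1.65, 2.29 and 2.76, a difference of -1.61 ± 0.43. In both genes the groups did not overlap.

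The 15 members with the uniform shoot excess all had negative values, from -1.61 to -0.436, with a median of -1.01, and the other 21 had a median of -0.215. The root total CK libraries in this contrast also served to choose the 15, so it is a description only. The antenna genes, with a median of -0.944, and the Rubisco and activase genes, with -1.07, had values of the same size, and none of these was called. By library, the median of the 15 genes relative to the CK mean was -1.40, -1.06 and -0.363 in the MgD libraries, and that of the antenna genes was -1.07, -1.19 and -0.504. The antenna sum was 440, 331 and 394 CPM in root total CK and 173, 175 and 271 CPM in root total MgD. The third MgD library, which had the smallest total and whose deposited counts and TPM disagree, was nearest to CK in both. Whether less green tissue in the MgD root samples accounts for these values was not tested.

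In root TRAP RNA the median over members was -0.0149 against -0.007. The smallest unadjusted p belonged to GLDH1 at 0.0177, with 4.16, 1.58 and 1.6 CPM under CK and 1.24, 1.11 and 1.04 under MgD, and then to PLGG1, which went from 6 counts to none. The GLDH1 groups did not overlap, but its adjusted p was 0.38. Root TRAP CK replicate 1 was the highest of its group for 23 of the 36 members and for 13 of the 15, and without it the median was 0.144. How often that library was the highest over all genes was not counted. The antenna sum was also highest in that library, 1360 CPM against 617 and 738.

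**Figure D5:**
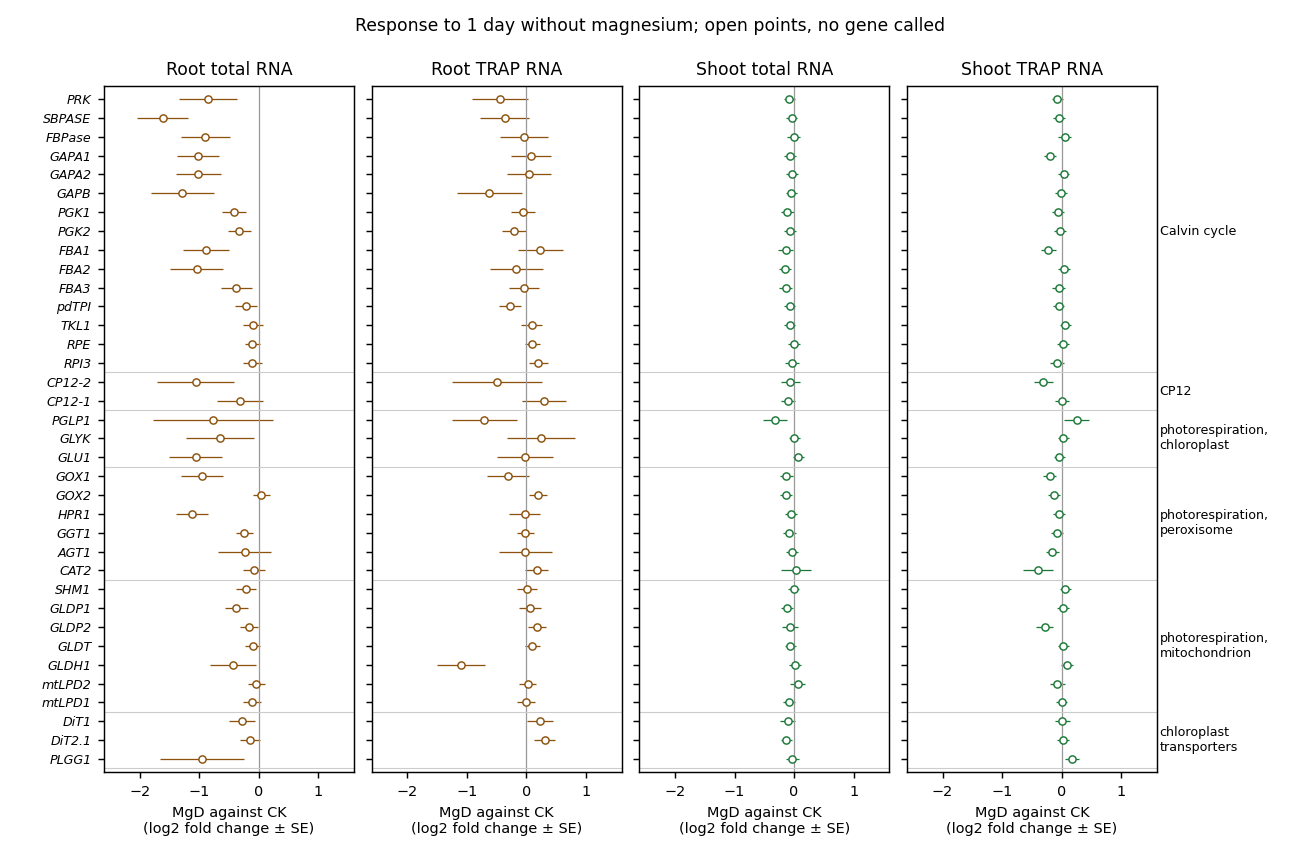
Log2 fold change of MgD over CK (± SE) for the 36 genes in 4 comparisons, all open because none was called. PLGG1 in root TRAP RNA is not drawn, since its MgD libraries had no counts. Root total RNA holds the widest negative values, to -1.61 for SBPASE, while the shoot values lie between -0.40 and 0.25.

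A change in the TRAP to total ratio under MgD was not called for any member in shoot or root, against 0% of genes, with 764 and 968 genes at an unadjusted p under 0.05 and 0 and 5 genes called by DESeq2. In root 33 of 36 members had positive values, with a median of 0.351 against 0.00916 over all genes. The median was 0.857 for the 15 members with the largest shoot excess and 0.225 for the other 21. This split is also a description, since the same root total CK libraries served to choose the 15. All 8 antenna genes were also positive, with a median of 0.914 and none called, and their part in these values was not tested. The values are the root TRAP response minus the root total response from the same libraries. The members' medians of those responses were -0.0149 and -0.378, so the values are not separate from the lean in root total RNA. The smallest unadjusted p were 0.0133 for HPR1 (1.09 ± 0.38) and 0.0423 for GAPA1 (1.10 ± 0.48), and in shoot 0.0701 for PGLP1 and 0.22 for FBA2. HPR1 had 8.29, 7.67 and 7.29 CPM and GAPA1 51.4, 49.1 and 22.8 CPM in root TRAP MgD, and both overlapped with root TRAP CK.

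The response also was not called as different between shoot and root, in total RNA for 0 members against 0.0236% of genes, and in TRAP RNA for 0 members against 0%, with 2301 genes at an unadjusted p under 0.05 and 144 called by DESeq2. In total RNA HPR1 had the smallest unadjusted p (0.000505, 1.15 ± 0.28, adjusted p = 0.562, edgeR quasi-likelihood test), followed by SBPASE (1.64 ± 0.42). HPR1 was called by DESeq2 and by edgeR without root total MgD replicate 3. In TRAP RNA the smallest belonged to GLDH1 (1.19 ± 0.36, adjusted p = 0.26).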

How the data were processed

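Total and TRAP RNA of shoots and roots were sequenced in 24 libraries of 8 groups, and another 8 samples that the labels call removed were not analysed here. The deposited counts are whole reads per gene, and the deposited TPM values were scaled by the authors for gene length and to a common total. The reads were processed with FastQC, Trimmomatic, STAR 2.7.6a and Subread 2.0.0, per the submitters' processing notes, and their genome build was not given in the sources used here. Of the low counts in a library, 81.5% to 92.6% were even, so reads may not be independent molecules and counting limits may be too narrow. The 2 tables disagree for root total MgD replicate 3, whose TPM values rest on 11727584 reads against 6147531 counts, and its counts were used. Whole reads were recovered from TPM with a tolerance of 0.05.

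Low genes were removed by filterByExpr, libraries were TMM-scaled, and counts were tested in edgeR 4.0.16 (R 4.3.3) by its quasi-likelihood test. P-values were adjusted over all genes tested (Benjamini-Hochberg) and called under 0.05. Each tissue's 12 libraries shared a model, and all 24 did for contrasts across tissues. CPM values are TMM-scaled over 24 libraries, and ± is the SE unless stated as SD, with 3 libraries a group. Steps were tested on simulated data. DESeq2 1.42.0, limma 3.58.1 and other settings served as alternatives. The members and gene lists were chosen with earlier results of these data known. Per-library values are given for the 5 highest and 5 lowest called members of a comparison, or the 2 with the smallest p, and for 11 anchor genes, in full under CK and for only part of them under MgD. Root TRAP and root total libraries of 1 medium with the same title number deviated together from their group means, with correlations of 0.151 to 0.367 in all 6 pairs, against at most 0.0787 for other numbers. They were taken as pairs from the data, since the labels tie the numbers to no shared sample. The 6 shoot pairs by title number, from -0.162 to 0.207, were not taken as pairs. By the numbers in the original library names, 4 shoot pairs stood at 0.135 to 0.207, against at most 0.133 for other numbers. That possible pairing was used only as an alternative. Sequences come from the RefSeq genome TAIR10.1, and figures were drawn with matplotlib 3.10.9.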

Additional observations from a re-analysis of the deposited data

Results flagged for a closer look

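For 13 members the difference between TRAP and total RNA under CK itself differed between shoot and root by the interaction test (edgeR quasi-likelihood, Benjamini-Hochberg adjusted p under 0.05), given here as shoot minus root on the log2 scale. It was positive for PLGG1 at 3.52, GAPB at 2.09, CP12-2 at 1.56 and GLU1 at 1.56. Of these, PLGG1 rests on root TRAP CK counts of 4, 2 and 0, CP12-2 on 12, 12 and 16, and GLU1 on 26, 12 and 50. Lane cannot be told apart from this interaction. It was negative for the uncertain PGLP1 at -4.64, CP12-1 at -2.00, PGK1 at -1.12, GOX2 at -1.04, pdTPI at -0.86, RPE at -0.85, SHM1 at -0.81, GLDP1 at -0.80 and GLDT at -0.56. Among all genes 28.9% were called in this test.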

How the results depend on the processing

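The number of members called higher or lower was recomputed for 15 comparisons. No member called in the reported test was called in the opposite direction under another setting. Members called only under another setting were not compared in direction. Where the reported count was above 0, 101 of 122 counts under other settings and 87 of 96 with 1 library left out were within 1.5 times it. The exceptions for TRAP against total RNA were as follows. In shoot under CK, limma on log2(TPM + 1) or log2(TPM + 0.1) called 6 lower, and all 24 libraries in 1 model 5 higher and 2 lower. In shoot under MgD that model called 5 higher and 2 lower. In root under CK limma called 5 higher and 15 lower with either pseudocount. In root under MgD limma called 11 higher and 6 lower, and DESeq2 and the model of 24 libraries each 3 lower. For the interaction with tissue limma called 18 higher with a pseudocount of 1, 16 with 0.1, and 4 lower with both. DESeq2 called 1 member, HPR1, higher for the MgD response in shoot against root total RNA. The cause of these differences was not tested.

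Leaving out 1 library at a time gave 7 to 11 higher and 7 to 9 lower for TRAP against total RNA in shoot under CK, 8 to 15 and 5 to 8 under MgD, 9 to 12 and 2 to 7 in root under CK, and 16 to 17 and 1 to 2 under MgD. It gave 3 to 7 higher and 9 to 10 lower for the interaction, 33 to 34 higher and 2 lower for shoot against root in total RNA, and 0 to 1 for the MgD response between tissues. The replicate block by title number changed no count of members by over 1.5 times. Besides AGT1 and DiT1 within roots, it added GLYK to shoot against root in total RNA and GLYK and AGT1 to the interaction. It changed no other call of a member. In the interaction the shoot libraries were not taken as pairs by title number. With the original library numbers as the block, 7 members were higher in the interaction, with PGK2 added as well. By those numbers each medium had 2 shoot pairs, at correlations of 0.135 to 0.207, against at most 0.133 for other numbers. The reported shoot tests leave out this possible pairing. With it as a block, HPR1 and pdTPI were lost and FBPase was added in shoot under CK. Under MgD, GOX2 and PGLP1 were lost and PGK1 and SBPASE were added. Counts of all genes called under MgD moved more, for root TRAP RNA from 0 to 170 with DESeq2 and 133 with 24 libraries. The depth limits PLGG1 and PGLP1 in roots, where a library held 0 to 84 counts. It also limits CP12-2 in root TRAP RNA, with 12, 12 and 16 counts under CK and 6, 26 and 0 under MgD. GLU1 was low there as well, with 26, 12 and 50 counts under CK.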
